A study of Rattus norvegicus with 8 samples.

Results

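Oligodendrocyte precursor cells (OPCs) carry a set of G protein-coupled receptors through which they read lipids, nucleotides, peptides and the matrix around them. The 10 receptors described here were chosen by gene symbol: Gpr17, Gpr37, Gpr37l1, Adgrg1, Lpar1, S1pr1, S1pr2, Ednrb, P2ry1 and Adora1. All 10 were found among the 32662 rows of the expression table, each on 1 row. The cells were primary OPCs from the cerebral cortex of Sprague Dawley rats aged 1 to 2 days. There were 4 libraries of cells deprived of oxygen and glucose for 6 h (OGD), as a model of ischaemia in culture, and 4 libraries of cells incubated under normal conditions (control). All cells had come off mixed glial cultures grown in 20% serum and had then been held for 4 to 5 days with PDGF and FGF at 10 ng/ml each and B27 at 2%, and these growth factors are known to keep OPCs dividing. No sort of the cells is described, and no label states that the libraries of a group came from separate cultures, so the p-values measure the spread between these libraries, which may be technical.

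A G protein-coupled receptor spans the membrane with a bundle of helices and, once its ligand binds, switches on a heterotrimeric G protein. Gi and Go proteins lower cyclic AMP, Gs raises it, Gq releases calcium through phospholipase C, and G12 and G13 act on the small GTPase RhoA. Receptor kinases, arrestins and RGS proteins end the signal. In the oligodendrocyte lineage such receptors are known to regulate how long precursors keep dividing, how they migrate and when they start to make myelin.

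Among the 10 receptors, Adora1, S1pr2, Gpr37, Gpr37l1 and Gpr17 fell after OGD and S1pr1 rose. Adgrg1 and Ednrb did not pass the test. Lpar1 and P2ry1 lay below 1 FPKM (fragments scaled by gene length and library total) in too many libraries to enter it. The test was limma on log2(FPKM + 1), two-sided, with Benjamini-Hochberg adjustment over the 11149 genes that had at least 1 FPKM in at least 4 libraries and a threshold of 0.05. Over these genes 49.5% passed, 22.7% upward and 26.8% downward, and the median log2 change was -0.04. So many genes moved that a receptor passing the test was no rare event, and with 8 tested receptors the count of 1 rise and 5 falls is given as a description. For 5 of the 10 receptors all OGD libraries were lower than all control libraries, and for 2 all were higher. The groups were likewise apart for 32.4% of all rows with a value above 0, and for 44.7% of the tested genes, 24.1% with OGD below and 20.7% with OGD above. In bulk RNA fewer cells of a type and less RNA per cell cannot be told apart.

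**Figure D1:**
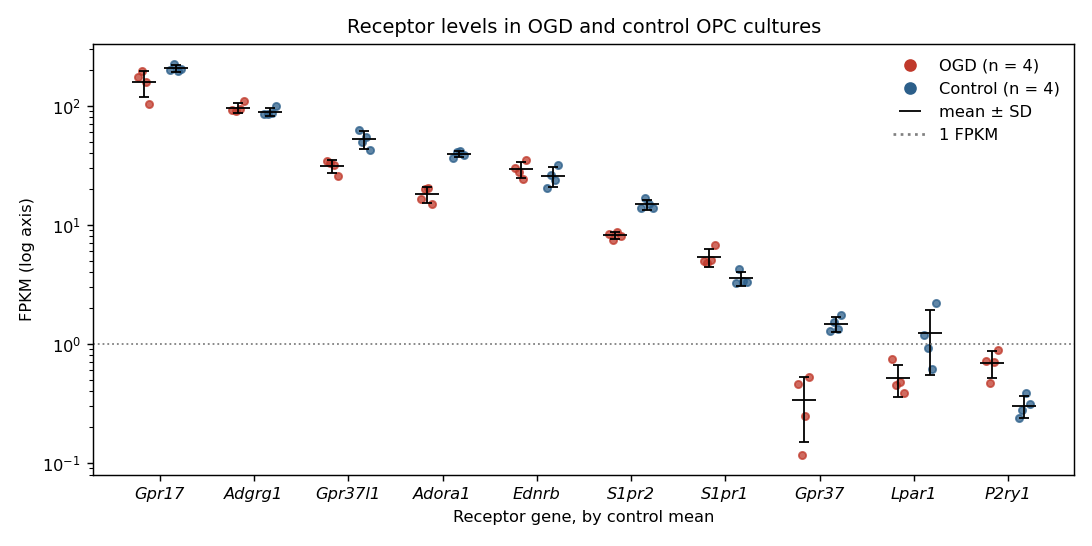
FPKM of the 10 receptors on a log axis in each OGD library (red, left of each pair) and each control library (blue), with mean and SD; the dotted line marks 1 FPKM. Gpr17 and Adgrg1 stand at the top in both groups, and Gpr37, Lpar1 and P2ry1 lie around or below 1 FPKM.

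The levels of the receptors, which FPKM allows to be compared between genes because it divides by length, spanned from over 100 FPKM to under 1 FPKM. In control libraries the order by mean ran Gpr17, Adgrg1, Gpr37l1, Adora1, Ednrb, S1pr2, S1pr1, Gpr37, Lpar1 and P2ry1. The range of each receptor there lay wholly above that of the next, with the exception of Gpr37 and Lpar1, whose ranges overlapped. In OGD libraries Ednrb stood above Adora1 and P2ry1 above Lpar1 and Gpr37. There the ranges overlapped between Gpr17 and Adgrg1, between Gpr37l1 and Ednrb, between P2ry1 and Lpar1 and between Lpar1 and Gpr37. The FPKM of the 10 receptors summed to 362, 380, 345 and 304 in OGD replicates 1 to 4, against 423, 453, 425 and 439 in control replicates 1 to 4. Gpr17 alone made up 48.1%, 51.4%, 45.9% and 33.9% of that sum in OGD replicates 1 to 4, against 46.4% or more in every control library.

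The promoters of the receptor that rose and of the 3 receptors with the smallest adjusted p among those that fell are shown, since S1pr1 and S1pr2 bind the same lipid and went opposite ways. Each runs 5′ to 3′ along the gene from 250 bases before to 50 bases after its start in RefSeq on build GRCr8, which is a later build than the rn6 of the deposited values. They lie at chr2:206314021-206314320 (S1pr1), chr8:27790295-27790594 (S1pr2), chr13:48246782-48247081 (Adora1) and chr4:55126371-55126670 (Gpr37), all on the minus strand. Capitals mark the core letters of hypoxia response elements, ACGTG or GCGTG, read on both strands (CACGT or CACGC on the other strand).
S1pr1: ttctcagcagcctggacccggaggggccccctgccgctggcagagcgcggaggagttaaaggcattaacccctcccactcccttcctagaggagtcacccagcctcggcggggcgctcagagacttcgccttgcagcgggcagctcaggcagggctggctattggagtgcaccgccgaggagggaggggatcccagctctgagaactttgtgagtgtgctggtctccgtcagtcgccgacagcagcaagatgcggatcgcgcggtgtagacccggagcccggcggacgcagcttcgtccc
S1pr2: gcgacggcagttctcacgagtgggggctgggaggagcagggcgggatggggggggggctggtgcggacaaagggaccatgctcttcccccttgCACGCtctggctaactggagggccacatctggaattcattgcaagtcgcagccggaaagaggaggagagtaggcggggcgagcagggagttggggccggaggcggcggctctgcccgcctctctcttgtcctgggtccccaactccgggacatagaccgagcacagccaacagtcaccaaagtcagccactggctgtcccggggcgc
Adora1: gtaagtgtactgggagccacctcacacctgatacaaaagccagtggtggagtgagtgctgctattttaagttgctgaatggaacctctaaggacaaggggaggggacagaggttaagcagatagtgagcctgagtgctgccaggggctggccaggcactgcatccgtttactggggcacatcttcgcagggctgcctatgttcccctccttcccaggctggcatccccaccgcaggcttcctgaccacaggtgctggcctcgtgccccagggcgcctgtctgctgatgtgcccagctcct
Gpr37: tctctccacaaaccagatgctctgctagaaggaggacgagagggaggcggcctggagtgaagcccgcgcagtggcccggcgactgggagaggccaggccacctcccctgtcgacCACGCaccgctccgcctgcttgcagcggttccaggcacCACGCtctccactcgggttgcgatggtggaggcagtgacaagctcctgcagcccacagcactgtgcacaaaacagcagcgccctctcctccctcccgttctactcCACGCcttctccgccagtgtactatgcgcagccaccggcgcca
The Gpr37 window held 3 matches and that of S1pr2 held 1, while those of S1pr1 and Adora1 held 0. Of the 9 receptors with an entry in the promoter table (all but Lpar1), 5 held at least 1 match, namely Gpr37, Adgrg1, S1pr2, Ednrb and P2ry1. Every one of these matches was GCGTG, which 29.7% of 33469 rat promoters of the same length hold. Either motif occurs in 41.6% of them. ACGTG, which also lies inside the palindrome CACGTG, occurs in 19.3% of promoters and in 0 of the 9. A match is a stretch of letters and not a binding site.

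Gpr17 (ENSRNOG00000025745) is the receptor that marks OPCs committing to differentiation, related in sequence to P2Y and cysteinyl leukotriene receptors, and in mice it must be lost again before myelination. It was listed at 174, 195, 158 and 103 FPKM in OGD replicates 1 to 4, against 199, 227, 197 and 205 FPKM in control replicates 1 to 4. OGD replicate 2 lay just under the lowest control library and OGD replicate 4 far below the rest. On the log2(FPKM + 1) scale it changed by -0.42 ± 0.16 (SE; limma, adjusted p = 0.0467), a mean of 158 ± 39.4 FPKM in OGD and 207 ± 13.7 FPKM in control (SD, n = 4 each). Without OGD replicate 4 the log2 change was -0.23 (adjusted p = 0.0398). The call was lost in 10 of 18 alternative settings, with adjusted p between 0.0157 and 0.218, among them quantile normalization (-0.29) and each analysis that left out 1 control library. Among the other genes of early differentiation, Bcas1 was at 369 ± 43.4 FPKM in OGD and 459 ± 33.0 FPKM in control, and Cnp at 194 ± 8.21 FPKM in OGD and 359 ± 29.8 FPKM in control. Tcf7l2, a transcription factor of differentiating oligodendrocytes, went the other way and rose to 23.4 ± 3.78 FPKM in OGD, against 12.8 ± 1.70 FPKM in control (log2 change 0.81; limma, adjusted p = 0.000375), and the myelin gene Mog rose by 0.41.

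Gpr37 and Gpr37l1 are orphan or prosaposin-linked receptors that resemble the endothelin receptors in sequence. Gpr37, which in mice holds back oligodendrocyte maturation, was a rare transcript. It stood at 0.459, 0.116, 0.249 and 0.523 FPKM in OGD replicates 1 to 4, against 1.28, 1.51, 1.32 and 1.74 FPKM in control replicates 1 to 4. The groups were far apart, with the highest OGD library below the lowest control library. The mean in OGD was 0.230 times that in control, whereas the log2 change on the FPKM + 1 scale, which understates the change of low genes, was -0.89 ± 0.15 (SE; limma, adjusted p = 0.000583). With a pseudocount of 0.1 it was -1.95. Gpr37 (ENSRNOG00000002524) entered the test through its control libraries alone, since no OGD library reached 1 FPKM, and a filter on the mean over all libraries left it out. With no filter it passed (adjusted p = 0.000693).

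Gpr37l1 (ENSRNOG00000006237), found on astrocytes and on OPCs, was far more abundant. It was at 34.6, 33.1, 31.9 and 25.9 FPKM in OGD replicates 1 to 4, against 63.2, 49.6, 54.4 and 42.3 FPKM in control replicates 1 to 4. All OGD libraries lay below all control libraries, and the control libraries were the more spread out. On the log2(FPKM + 1) scale it changed by -0.72 ± 0.12 (SE; limma, adjusted p = 0.000737), and it passed under each of the 18 alternatives (adjusted p up to 0.00318). Within a library Gpr37 minus Gpr37l1 averaged -4.60 ± 0.33 in OGD and -4.43 ± 0.35 in control on the log2(FPKM + 1) scale (SD, n = 4 each). By exact permutation, two-sided, p was 0.514 and its adjusted value over 3 pairs was 0.514. With a pseudocount of 0.1 the 2 groups differed by -1.22 (exact permutation, adjusted p = 0.0571), so a difference in how far the pair fell did not pass on either scale.

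Adgrg1 (ENSRNOG00000014963), also known as GPR56, is an adhesion receptor that binds collagen III and transglutaminase 2, acts through RhoA, and in mice keeps OPCs dividing. Its levels were 91.6, 90.2, 94.4 and 109 FPKM in OGD replicates 1 to 4, against 84.9, 85.7, 87.0 and 99.9 FPKM in control replicates 1 to 4. The groups overlapped through control replicate 4 alone. The log2 change was 0.11 with a 95% interval of -0.07 to 0.28 (limma, adjusted p = 0.289), which leaves room for a small rise, and with quantile normalization it passed at 0.22 (adjusted p = 0.0265, range over 18 alternatives 0.0265 to 0.820). Without OGD replicate 4 the change was 0.05 and without control replicate 4 it was 0.16. Its ligand genes Tgm2 and Col3a1 were below the filter, while Gna12, a G protein subunit that acts on RhoA, fell and Rhoa itself fell by 0.33 on the log2 scale (limma, adjusted p = 0.00224). Gna13, of the same family as Gna12, rose by 0.24 (limma, adjusted p = 0.0244) and Arhgef11, an exchange factor for RhoA, rose by 0.30 (limma, adjusted p = 0.0487).

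**Figure D2:**
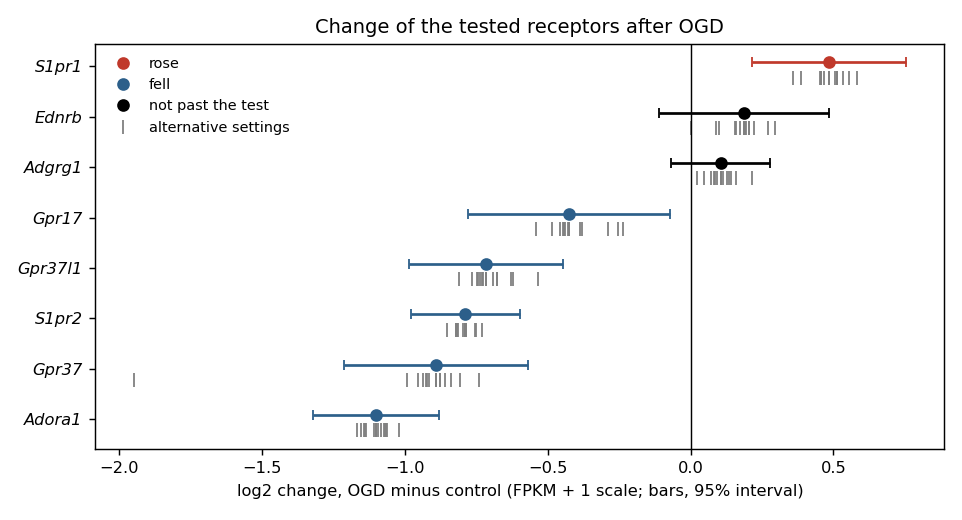
Log2 change (OGD minus control, FPKM + 1 scale) of the 8 tested receptors with its 95% interval, coloured by call; grey ticks below each point are the values under the alternative settings. S1pr1 lies to the right of 0, 5 receptors lie to the left, and the intervals of Ednrb and Adgrg1 span 0. The tick of Gpr37 near -1.95 is that with a pseudocount of 0.1.

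The lysophospholipid receptors S1pr1 and S1pr2 both bind sphingosine 1-phosphate but couple differently, S1pr1 to Gi and S1pr2 largely to G12 and G13. S1pr1 (ENSRNOG00000013683) was at 5.01, 4.75, 5.06 and 6.78 FPKM in OGD replicates 1 to 4, against 3.28, 4.27, 3.38 and 3.30 FPKM in control replicates 1 to 4. Every OGD library was above every control library, and control replicate 2 stood above the other control libraries. On the log2(FPKM + 1) scale it changed by 0.48 ± 0.12 (SE; limma, adjusted p = 0.00720), and S1pr1 passed under each of the 17 alternatives in which it was tested. S1pr2 (ENSRNOG00000020653) was at 8.33, 7.51, 8.72 and 8.13 FPKM in OGD replicates 1 to 4, against 13.8, 16.9, 14.9 and 13.9 FPKM in control replicates 1 to 4. Its OGD libraries were tightly grouped and clear of the control libraries. On the log2(FPKM + 1) scale it changed by -0.79 ± 0.09 (SE; limma, adjusted p = 4.15e-05).

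The balance between these receptors, taken within each library, differed between the groups. S1pr1 minus S1pr2 was -0.64, -0.57, -0.68 and -0.23 in OGD replicates 1 to 4, against -1.79, -1.77, -1.86 and -1.79 in control replicates 1 to 4, on the log2(FPKM + 1) scale. S1pr2 remained the higher of the pair in all 8 libraries, with a narrower margin in each OGD library than in any control library. The difference between groups was 1.27. By exact permutation, two-sided, p was 0.0286, which is the minimum for 4 libraries against 4, and the value adjusted over 3 pairs was 0.0429. All OGD libraries were above all control libraries for S1pr1 and below them for S1pr2. The permutation p followed from this and adds no support beyond the 2 receptors' own values. The size of the within-library difference does not depend on how libraries are scaled to each other, apart from the pseudocount.

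Lpar1 (ENSRNOG00000013656), the lysophosphatidic acid receptor of maturing oligodendrocytes, was low. It stood at 0.741, 0.450, 0.482 and 0.389 FPKM in OGD replicates 1 to 4, against 1.19, 0.932, 0.620 and 2.20 FPKM in control replicates 1 to 4. The groups overlapped, since control replicate 3 lay below OGD replicate 1, and the control libraries ranged widely. Lpar1 was not tested in the main analysis, and with no filter its log2 change of -0.52 did not pass (limma, adjusted p = 0.0722). Without control replicate 4, the highest of its libraries, the change was -0.33.

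Ednrb (ENSRNOG00000010997) is the endothelin receptor through which endothelins act on OPCs and astrocytes. It was at 29.9, 27.9, 24.3 and 34.9 FPKM in OGD replicates 1 to 4, against 20.5, 26.3, 23.9 and 32.1 FPKM in control replicates 1 to 4. The groups overlapped over most of their range. The log2 change was 0.19 with a 95% interval of -0.11 to 0.49 (limma, adjusted p = 0.274). Single libraries moved it, to 0.09 without control replicate 1, 0.10 without OGD replicate 4, 0.30 without control replicate 4 and 0.0031 without both control replicate 1 and OGD replicate 4. It did not pass under any of the 18 alternatives (adjusted p from 0.0805 to 0.985). The endothelin genes Edn1, Edn2 and Edn3 were below the filter in these cultures, and Edn2 was listed at 0 in all libraries.

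The purinergic receptors P2ry1 and Adora1 bind ADP and adenosine, products of ATP that accumulate outside cells in ischaemia. Adora1 (ENSRNOG00000003442), which couples to Gi, had the largest change among the tested receptors on the log2(FPKM + 1) scale. By the ratio of means, 0.455 for Adora1 and 0.230 for Gpr37, and with a pseudocount of 0.1 (-1.14 for Adora1), Gpr37 changed more. It was at 16.6, 19.9, 20.6 and 15.0 FPKM in OGD replicates 1 to 4, against 36.3, 41.1, 41.9 and 39.0 FPKM in control replicates 1 to 4. The gap between the groups was wider than the spread within either. On the log2(FPKM + 1) scale it changed by -1.10 ± 0.10 (SE; limma, adjusted p = 1.21e-05), and between -1.17 and -1.02 over the 18 alternatives, all past the test. The other adenosine receptors Adora2a, Adora2b and Adora3 were below the filter, so Adora1 was the only one of the family that was tested.

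P2ry1 (ENSRNOG00000014232), a Gq-coupled receptor that raises calcium, was at 0.717, 0.466, 0.708 and 0.888 FPKM in OGD replicates 1 to 4, against 0.238, 0.276, 0.386 and 0.313 FPKM in control replicates 1 to 4. Each OGD library was above each control library, although none reached 1 FPKM. The mean in OGD was 2.29 times that in control, and with no filter, a setting in which 32.7% of 16909 genes passed, its log2 change of 0.37 passed (limma, adjusted p = 0.01). P2ry1 minus Gpr17 averaged -6.52 ± 0.54 in OGD and -7.32 ± 0.13 in control on the log2(FPKM + 1) scale (SD, n = 4 each), and by exact permutation the adjusted p over 3 pairs was 0.0429. All OGD libraries were above all control libraries for P2ry1 and below them for Gpr17. The permutation result followed from this and adds no support for a change of either receptor. Without OGD replicate 4 the difference between groups in P2ry1 minus Gpr17 was 0.56, against 0.80 with all libraries.

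**Figure D3:**
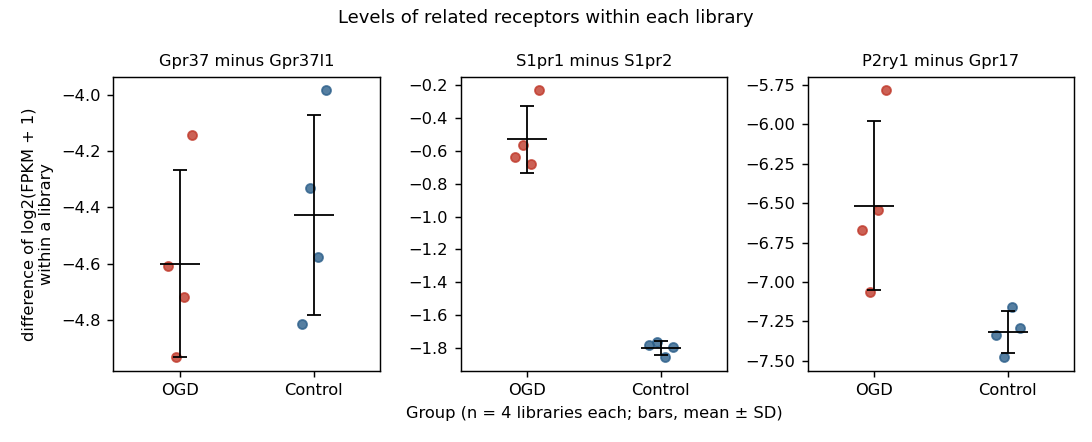
Difference of log2(FPKM + 1) between related receptors within each library, OGD left and control right, with mean and SD; each panel has its own vertical scale. S1pr1 minus S1pr2 lies between -0.68 and -0.23 in OGD and between -1.86 and -1.77 in control, P2ry1 minus Gpr17 does not overlap either, and Gpr37 minus Gpr37l1 overlaps.

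The tested genes whose pattern over the 8 libraries was nearest to that of Adora1 were Polg, the mitochondrial DNA polymerase (root mean square distance 0.069 on the log2 scale after each gene's mean was removed), Atf7ip (0.075) and Rbm14 (0.080). Polg was at 41.0 ± 5.39 FPKM in OGD and 91.7 ± 7.49 FPKM in control (SD, n = 4 each). Those nearest to Gpr37 were Recql, a DNA helicase (0.073), Cbr3, a carbonyl reductase (0.080), and Asf1b, a histone chaperone of replication (0.085). These likenesses were ranked over 10400 genes and describe 8 values each. They used the FPKM + 1 scale, which understates the fall of Gpr37, whose mean in OGD was 0.230 times that in control. Recql was at 8.21 ± 1.44 FPKM in OGD and 16.2 ± 1.52 FPKM in control, a smaller fall by the ratio of means. The likeness to Gpr37 was not ranked on another scale.

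Beside the 10 receptors, 34 other receptors of the same families were looked up, of which 14 passed the filter. Of these 14, 7 fell, 1 rose and 6 did not pass, beside 26.8% of all tested genes that fell and 22.7% that rose. The median log2 change was -0.27, against -0.04 over all tested genes. Lpar4, another lysophosphatidic acid receptor, fell to 7.53 ± 1.02 FPKM in OGD, against 13.2 ± 0.794 FPKM in control (log2 change -0.75). It was thus well above Lpar1 in both groups. P2ry13, a receptor for ADP, had 0.161 FPKM in OGD replicate 2, 0.115 FPKM in OGD replicate 3 and a listed value of 0 in the other OGD libraries, against 1.31, 1.78, 1.18 and 1.23 FPKM in control replicates 1 to 4, and passed as a fall. P2ry12 and P2ry6, like P2ry13 known from microglia, had log2 changes of -1.10 and -0.84 and passed as falls. The other receptors that fell were adhesion receptors, Adgrl2 by 0.80, Adgrb1 by 0.34 and Adgrb2 by 0.34, while Adgrl3 rose by 0.23. No relative was called as rising without control replicate 1, without control replicate 4 or without OGD replicate 3. P2ry13 and P2ry6 entered the test through their control libraries alone.

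P2ry12, P2ry13 and P2ry6 fell in libraries in which markers of microglia fell too. Of 12 tested microglial markers 10 fell and 0 rose, beside 26.8% of all tested genes that fell, and 2 of the 10, Cx3cr1 and Ptprc, entered the test through their control libraries alone. The FPKM of the microglial markers summed to between 84.0 and 152 in OGD libraries and between 229 and 365 in control libraries. C1qa was at 19.3 ± 7.02 FPKM in OGD and 60.0 ± 14.8 FPKM in control, and C1qc at 17.3 ± 5.51 FPKM in OGD and 55.0 ± 13.4 FPKM in control. S1pr1 and P2ry1 were higher in OGD. The part of microglial RNA in the change of any receptor, downward or upward, was not tested.

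Gpr37l1, Ednrb and S1pr1 are also expressed by astrocytes. The 10 astrocyte markers summed to between 166 and 173 FPKM in OGD libraries and between 169 and 181 FPKM in control libraries, so that these ranges overlapped. Slc1a3, Aldoc and Sox9 held most of these sums, which therefore say little about the low markers. Gfap was at 0.480 ± 0.258 FPKM in OGD and 2.16 ± 0.618 FPKM in control. Of 7 tested markers 1 fell (Gfap, by 1.09 on the log2 scale) and 0 rose, beside 26.8% and 22.7% of all tested genes. Gfap entered the test through its control libraries alone. Over the alternatives 0 to 2 of the tested astrocyte markers fell and 0 or 1 rose. Slc1a3 was at 60.1 ± 2.49 FPKM in OGD and 63.4 ± 2.67 FPKM in control, Aldoc at 49.2 ± 1.20 FPKM in OGD and 54.0 ± 6.13 FPKM in control, and Aqp4, Aldh1l1 and Gjb6 were below the filter. The part of astrocyte RNA in the receptor values was not tested.

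The cultures carried the markers of their label. OPC markers were abundant, and 5 of 9 fell and 0 rose, beside 26.8% of all tested genes that fell and 22.7% that rose. Olig1 was at 357 ± 28.0 FPKM in OGD and 794 ± 41.4 FPKM in control, and Ptprz1 at 271 ± 18.3 FPKM in OGD and 342 ± 42.8 FPKM in control. The FPKM of the OPC markers summed to between 1440 and 1635 in OGD libraries and between 2175 and 2307 in control libraries. Of 10 tested differentiation markers 7 fell and 2 rose (1 under 11 of the 18 alternatives), beside 26.8% and 22.7% of all tested genes. The differentiation markers summed to between 732 and 815 FPKM in OGD libraries and between 1085 and 1289 FPKM in control libraries. The part of this shift in the fall of Gpr17 and Gpr37 was not tested. Neuronal markers summed to between 275 and 355 FPKM in OGD libraries and between 286 and 350 FPKM in control libraries, led by Map2 and Tubb3. Of 10 tested neuronal markers 2 rose and 3 fell, near the 22.7% and 26.8% of all tested genes. Of 11 matched vascular and fibroblast markers 0 passed the filter, with sums between 0.171 and 0.354 FPKM in OGD libraries and between 0.251 and 0.457 FPKM in control libraries, and Cldn5, Rgs5 and Dcn listed at 0 throughout. Kdr and Tek, the highest of them, reached at most 0.157 and 0.211 FPKM in OGD libraries and 0.178 and 0.123 FPKM in control libraries.

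**Figure D4:**
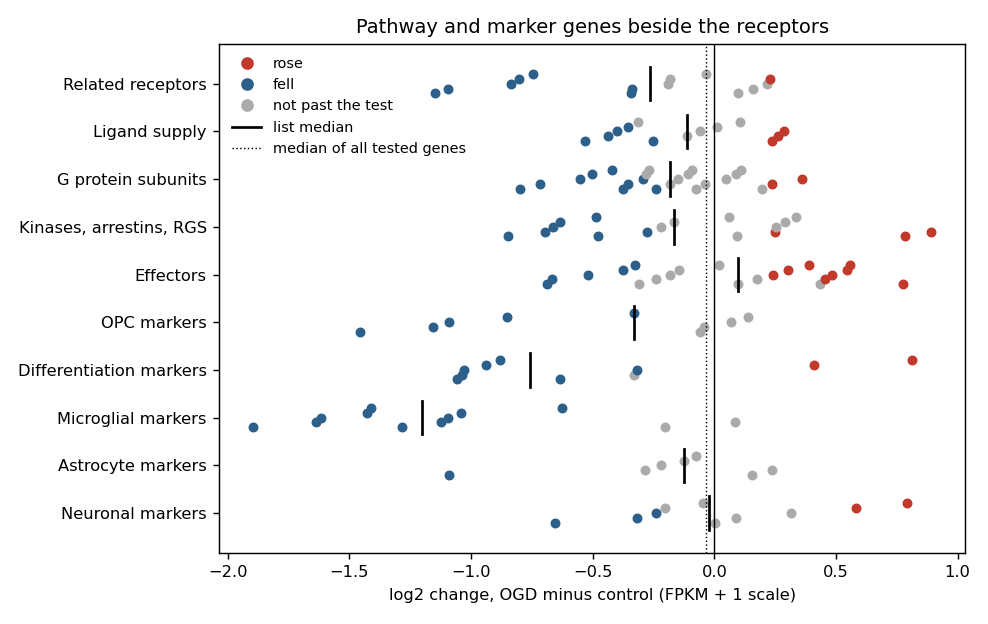
Log2 change (OGD minus control, FPKM + 1 scale) of each tested gene of 5 pathway lists and 5 marker lists, coloured by call, with each list's median as a bar and the median of all tested genes dotted. The list of effectors has its median above 0 here and below 0 with no filter, while microglial and differentiation markers lie furthest to the left.

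Genes that make, release or remove the ligands moved in both directions. Of 29 looked up 13 were tested, and 3 rose, 5 fell and 5 did not pass, with a median log2 change of -0.11. Over all tested genes 22.7% rose and 26.8% fell. Without control replicate 4 there were 2 rises and 3 falls, and rises also numbered 2 after median-centring, with a replicate block and without control replicate 3, OGD replicate 1, OGD replicate 3 or OGD replicate 4. Enpp2, the enzyme autotaxin that makes lysophosphatidic acid, rose to 48.1 ± 1.98 FPKM in OGD, against 39.2 ± 0.665 FPKM in control. Plpp3, a lipid phosphatase, and Sgpp1, a sphingosine 1-phosphate phosphatase, rose by 0.26 and 0.24 on the log2 scale, while the lipid phosphatase Plpp1 (0.01), the sphingosine kinase Sphk2 (-0.06) and the sphingosine 1-phosphate exporter Spns2 (0.10) did not pass. Sgpl1, the lyase that breaks down sphingosine 1-phosphate, fell to 18.1 ± 1.54 FPKM in OGD, against 24.9 ± 2.71 FPKM in control. Ece1, which processes endothelins, fell to 15.8 ± 0.805 FPKM in OGD, against 23.2 ± 1.06 FPKM in control. Psap, which encodes prosaposin, fell by 0.25, and the adenosine-clearing enzymes Adk and Ada fell by 0.35 and 0.40 (log2).

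Of 23 tested G protein subunits 2 rose, 9 fell and 12 did not pass, with a median log2 change of -0.18. The shares over all tested genes were 22.7% rising and 26.8% falling. Gnb4, a beta subunit, fell to 17.9 ± 0.902 FPKM in OGD, against 32.0 ± 3.18 FPKM in control. Gna12 fell to 62.6 ± 0.872 FPKM in OGD, against 80.3 ± 2.69 FPKM in control, and Gng4, a gamma subunit, fell by 0.72 on the log2 scale. Gna13 and Gnaz were the 2 that rose, by 0.24 and 0.36 on the log2 scale. Of the Gi genes that serve Adora1 and S1pr1, Gnai3 fell by 0.37, while Gnai1 (0.11) and Gnai2 (-0.15) did not pass. Without control replicate 1 and OGD replicate 4 the G protein counts were 0 rising and 10 falling. The rises numbered 1 without control replicate 3, control replicate 4, OGD replicate 1, OGD replicate 3 or OGD replicate 4.

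Of 17 tested receptor kinases, arrestins and RGS proteins 3 rose, 7 fell and 7 did not pass. Among all tested genes 22.7% rose and 26.8% fell. The list's median log2 change was -0.17, which a filter on the mean turned to 0.06, and with quantile normalization 5 rose. RGS proteins speed up the switching off of G proteins. Rgs20 fell to 15.1 ± 1.06 FPKM in OGD, against 24.5 ± 1.79 FPKM in control, and Rgs12 fell by 0.70 on the log2 scale. Rgs17 rose to 5.14 ± 1.23 FPKM in OGD, against 2.28 ± 0.463 FPKM in control. The others that rose were Rgs2 by 0.78 and Grk2, a receptor kinase listed under an older symbol, by 0.25. Rgs1 and Rgs8, which also fell, entered the test through their control libraries alone. Both arrestins that bind such receptors, Arrb1 (-0.22) and Arrb2 (0.10), did not pass.

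Of 21 tested effector genes 8 rose, 5 fell and 8 did not pass, beside 22.7% of all tested genes that rose and 26.8% that fell. The median log2 change of the effectors was 0.10. Which way the effectors leaned depended on single libraries and on the filter. The rises numbered 5 without control replicate 3, control replicate 4, OGD replicate 1 or OGD replicate 2, and 10 without OGD replicate 4. Without control replicate 1 there were 6 rises and 7 falls with a median of 0.02, and with no filter there were 5 of each with a median of -0.0024. Pde4b, a phosphodiesterase that breaks down cyclic AMP, rose to 62.2 ± 4.40 FPKM in OGD, against 41.9 ± 1.57 FPKM in control. Prkaca, a catalytic subunit of protein kinase A, fell to 39.6 ± 3.78 FPKM in OGD, against 64.3 ± 4.00 FPKM in control. Plcb3, a phospholipase C that acts below Gq, fell to 12.2 ± 0.909 FPKM in OGD, against 20.0 ± 1.31 FPKM in control. Its relative Plcb4 went the other way and rose by 0.54 on the log2 scale (limma, adjusted p = 0.0033). Plcb1 (0.10) did not pass. In the 5 lists together 50 of 88 tested genes passed, beside the 49.5% of all tested genes. Genes named in these lists are the 3 with the smallest p of each, and others were chosen after their values were seen.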

How the data were processed

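RNA from 8 samples was made into libraries with the Agilent SureSelect kit for stranded RNA, as the labels' protocols state. The authors deposited 1 table of FPKM values, per the file headers. Trimmomatic, FastQC and the build rn6 (Rnor_6.0) are named per the submitters' processing notes. Neither the aligner nor the program behind FPKM, nor whether it used strand, is given in the sources used here.

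The 11149 of 32662 genes that reached 1 FPKM in 4 or more libraries were tested on log2(FPKM + 1) with limma 3.58.1 in R 4.3.3 (group only, trended empirical Bayes). The receptors, lists and tests were chosen with earlier results of these data known. Lists held 213 entries, of which 206 matched, 2 by an older symbol, and the row with the highest mean was used. The 3 within-library differences were compared by exact permutation over libraries. All receptors were described in full. Of each pathway list the 3 tested genes with the smallest p were named, of each marker list the 2 highest, and for the 2 receptors with the largest change the 3 nearest genes. Fragment totals are unknown. Steps between values up to 0.5 FPKM gave depths of 0.814 (OGD replicate 2) to 1.17 (OGD replicate 4) relative to control replicate 1, with 83.6% to 85.4% of ratios whole within 0.01 on the log2 scale. Correlations of log2 values were 0.975 to 0.986 within OGD, 0.981 to 0.988 within control and 0.940 to 0.953 between groups. Values of 0 may be failed estimates. The procedure was tested on simulated data with independent normal noise and 50 changed genes at each fold, far fewer than were called here. It recovered 26% of changes of 1.25-fold, 68% of 1.5-fold and 96% of 2-fold, so small changes were often missed. Alternatives were other scalings, filters, pseudocount and variance model, a replicate block, and libraries left out. A filter on the mean was chosen after seeing the data. Promoters came from RefSeq (GRCr8) and were matched by symbol. Figures used Python 3.11.15 and matplotlib 3.10.9.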

Additional observations from a re-analysis of the deposited data

Results flagged for a closer look

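Of 92 groups of 4 libraries that were examined, 6 had 1 library well apart from the rest. Chance alone flags about 5% of groups, or 4.6 here. Among the receptors, control replicate 4 had 99.9 FPKM of Adgrg1, above the other control libraries, and control replicate 2 had 4.27 FPKM of S1pr1, still below every OGD library. Control replicate 1 was low in Ece1 at 21.6 FPKM, in Plcb3 at 18.0 FPKM and in Map2 at 183 FPKM. OGD replicate 4 had 11.6 FPKM of Rbm14, below the other OGD libraries.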

How the results depend on the processing

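Under 18 alternatives the falls of Adora1, S1pr2 and Gpr37l1 passed each time, that of Gpr37 and the rise of S1pr1 in each of the 16 and 17 in which they were tested, and no receptor changed sign. Except with no filter, Gpr37 was kept through its control libraries alone. Genes were kept once over all libraries, so leaving libraries out did not repeat the filter. The passes of Gpr37 in those settings rest on that choice and add no separate support. The receptors called up numbered 1, but 0 with a filter of 5 FPKM, which left S1pr1 out, and 2 with no filter (P2ry1 added) and with quantile normalization (Adgrg1 added). Those called down numbered 5, but 3 with a filter on the mean, 4 with a filter of 5 FPKM, no filter, no trend, quantile normalization or rescaling outside mitochondrial genes, and 4 or 5 without single libraries; without control replicate 1 and OGD replicate 4 together they stayed at 1 and 5. With a pseudocount of 0.1 the changes of Lpar1 and P2ry1 moved to -1.02 and 0.96. Over libraries left out singly, S1pr1 minus S1pr2 ranged from 1.17 to 1.32, and P2ry1 minus Gpr17 from 0.56 to 0.98, and no such design can pass over 3 pairs (adjusted p = 0.0857 for both). Without control replicate 1 and OGD replicate 4 they were 1.18 and 0.55 (adjusted p = 0.1). Slc1a3 changed sign with quantile normalization (0.0020). Scalings moved the median of all genes by at most 0.03 on the log2 scale, and that of neuronal markers changed sign outside mitochondrial genes (0.01) and without control replicate 3 (0.05). The medians of receptor kinases, arrestins and RGS proteins (0.06, filter on the mean) and of effectors (-0.0024, no filter) also changed sign.

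No label states whether libraries of the same replicate number share a culture. Deviations of same-numbered libraries correlated at -0.22, 0.16, 0.01 and 0.09 for numbers 1 to 4, and those of differently numbered libraries at -0.33 to 0.22. Such correlations cannot settle whether the samples were paired. With a replicate block 5509 genes were called, against 5519 without it, and the receptor counts were the same at 1 and 5.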
